A study of Mus musculus with 8 samples.

Results

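The sperm cation channel CatSper and the ion transporters that act beside it in the sperm tail were examined in testes of mice that lack Ing2. The group held 10 genes: the 4 pore subunits Catsper1, Catsper2, Catsper3 and Catsper4, the auxiliary subunits Catsperb and Catsperd, and Kcnu1, Hvcn1, Slc9c1 and Atp1a4. They were chosen by name, with no rule on their values but with earlier results of these data known. Every probe set annotated to exactly 1 of these symbols was taken. All 10 genes were found, each by 1 probe set, among 19938 genes and 35557 probe sets.

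Total RNA of whole testes was measured in 5 Ing2−/− mice and 3 Ing2+/+ littermates, all males of 2 to 3 months, with 1 Affymetrix Mouse Gene ST array per mouse. In Ing2−/− mice the second exon of Ing2, which encodes a reader of methylated histone H3, was deleted in the whole animal. The allele was made in embryonic stem cells of a strain other than C57BL/6J, and the exon was removed with the EIIa-Cre transgene. Breeding with C57BL/6J mice then segregated the transgene away. The strain of origin of the sequence around Ing2 was not measured in these mice. Its effect on any gene, including genes near Ing2, was not tested apart from the loss of Ing2. The controls were wild-type littermates, and no treatment is described for either group. The arrays give log2 levels normalized by RMA (robust multi-array average), so that a level says how abundant a transcript was among all RNA of that testis. Whole testis mixes germ cells of all stages with Sertoli, Leydig and other somatic cells, and fewer cells of a type and less RNA per cell cannot be told apart in such RNA.

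CatSper is the calcium channel of the sperm flagellum. Its pore is built of CATSPER1 to CATSPER4, surrounded by auxiliary subunits, and calcium entry through it drives hyperactivated motility, the whip-like beating that sperm need to reach and penetrate the egg. The channel opens at alkaline pH, which proton exporters raise, and the potassium channel SLO3, encoded by Kcnu1, sets the membrane potential of the sperm. In the mouse testis most of these genes are transcribed from late meiosis and in spermatids, well before the protein works in the mature sperm. CREM and its relatives, factors that bind the cAMP response element TGACGTCA, and MYBL1, whose sites hold CAGTT, are known regulators of spermatid and spermatocyte genes.

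The 250 bases before the transcription start, taken from RefSeq (GRCm38.p6), were held for 7 of the 10 genes with 8 starts, and Catsper1, Kcnu1 and Hvcn1 were not matched. The full element TGACGTCA, searched on both strands, was in 0 of the 8 windows and in 1.55% of the 32851 windows of the same length of all genes. Its shorter core TGACG, which the full element also holds, lay on either strand in 2 of the 8 and in 17.8% of all windows. CAGTT on either strand was in 5 of the 8 and in 39.1% of all windows. Both windows with TGACG are printed here because they show where the core stood in front of a pore subunit and of an auxiliary subunit. Capitals mark TGACG or its reverse complement CGTCA, and each window reads from 5′ to 3′ on the strand of its gene.
Catsper2 (chr2:121413793-121414042, minus strand): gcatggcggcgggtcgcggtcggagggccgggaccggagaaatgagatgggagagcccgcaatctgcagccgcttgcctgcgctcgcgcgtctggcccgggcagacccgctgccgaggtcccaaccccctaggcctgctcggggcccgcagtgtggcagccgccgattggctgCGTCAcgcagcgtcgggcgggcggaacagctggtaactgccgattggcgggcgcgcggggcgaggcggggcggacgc
Catsperd (chr17:56626797-56627046, plus strand): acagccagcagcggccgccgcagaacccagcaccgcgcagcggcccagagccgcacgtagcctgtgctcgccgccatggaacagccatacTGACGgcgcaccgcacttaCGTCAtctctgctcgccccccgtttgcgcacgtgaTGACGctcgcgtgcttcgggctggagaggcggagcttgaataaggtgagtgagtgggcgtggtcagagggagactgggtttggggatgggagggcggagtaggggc
In Catsper2 the core began 77 bases before the start. Catsperd held 3 copies before the first of its starts, at 160, 141 and 106 bases. A match of letters is a description of the window only, since no binding was measured here.

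Ing2 itself averaged 5.29 ± 0.22 in Ing2−/− testes and 7.46 ± 0.13 in Ing2+/+ testes (log2 level, SD, n = 5 and 3), a log2 fold change of −2.16 ± 0.13 (SE) with an adjusted p of 3.95e-04 by limma. Its Ing2−/− levels of 5.06 to 5.64 lay near background. The median over probe sets that carry no symbol was 5.54 to 5.62 in those arrays, so the full size of the fall cannot be read. Here and below fold changes are Ing2−/− minus Ing2+/+, limma fits all probe sets together, p-values are adjusted by Benjamini-Hochberg over all 35557 of them, and a gene is called at an adjusted p under 0.05. Ing2−/− replicate 3 stood apart: its mean correlation with the other Ing2−/− arrays across probe sets was 0.983, against 0.990 to 0.992 for the other 4 and 0.995 for the Ing2+/+ arrays. It also had the lowest spermatid and the highest Sertoli marker levels, so each call below is also given without it.

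Of the 10 sperm ion transport genes, 9 had lower mean levels in Ing2−/− than in Ing2+/+ testes, as had 9120 of all 19938 genes. The median log2 fold change of the 10 was −0.41, against 0.02 over all genes. Catsper1 and Kcnu1 fell to 0.60 and 0.58 of the Ing2+/+ level and were the 2 genes called, while 0 were called higher. Over all genes 3.01% were called lower. With each array left out in turn, 0 to 3 of the 10 were called lower and their median lay between −0.49 and −0.27, with −0.27 reached without Ing2−/− replicate 3. That fit made more calls throughout, with 3 of the 10 and 7.76% of all genes lower and 8.72% of all genes higher. At an unadjusted p under 0.05, 7 of the 10 were lower in Ing2−/− testes, as were 13.5% of all genes. In 8 of the 10 the groups did not overlap, with all Ing2−/− testes under the lowest control, which held for 14.9% of all genes.

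**Figure D1:**
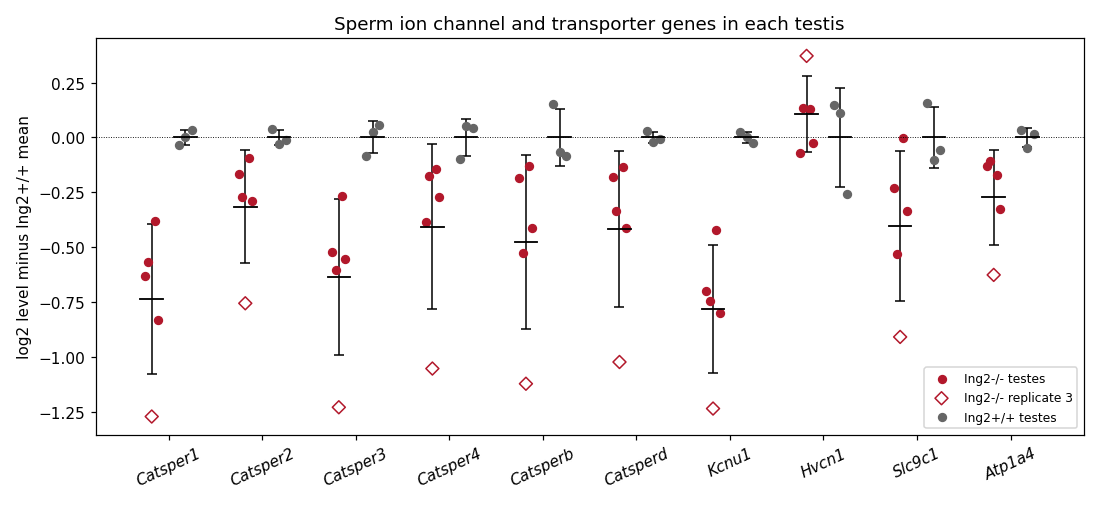
Log2 level of each sperm ion transport gene in each testis minus its Ing2+/+ mean (y axis), with Ing2−/− testes left (red, replicate 3 as an open diamond) and Ing2+/+ testes right (grey) at each gene; bars give the mean and SD. Kcnu1 and Catsper1 have the lowest Ing2−/− means (−0.78 and −0.74), Hvcn1 alone has a mean above 0 (0.11), and replicate 3 is the lowest testis of 9 genes.

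All 4 pore subunits had lower means in Ing2−/− testes, and 1 of them was called. Catsper1, the pore subunit with a histidine-rich tail, had log2 levels of 9.05, 9.11, 8.41, 9.30 and 8.85 in Ing2−/− replicates 1 to 5, against 9.64, 9.68 and 9.71 in Ing2+/+ replicates 1 to 3. The groups were separated by 0.34 between the highest Ing2−/− and the lowest Ing2+/+ testis. Its log2 fold change was −0.74 ± 0.18 (SE, 95% interval −1.13 to −0.34), with an adjusted p of 0.0498 by limma, and a two-sided exact permutation test over the 56 ways to divide 8 arrays into 5 and 3 gave 0.0179, the smallest p that it can give. The adjusted p is just under the threshold. It was 0.0108 without Ing2−/− replicate 3, but the call was lost without Ing2−/− replicate 1, 2 or 5 (limma, adjusted p = 0.0733, 0.0649 and 0.110) and without Ing2+/+ replicate 1, 2 or 3 (0.156, 0.162 and 0.153).

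Catsper3 had levels of 9.07, 8.99, 8.37, 9.33 and 9.04 in Ing2−/− testes, against 9.51, 9.62 and 9.65 in Ing2+/+ testes. The groups did not overlap, and the highest Ing2−/− testis was 0.18 below the lowest control. The log2 fold change of −0.63 ± 0.18 did not pass (limma, adjusted p = 0.0764). Without Ing2−/− replicate 3 it was −0.49 and passed, with an adjusted p of 0.0140, and it passed with no other array left out.

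Catsper2 had levels of 10.97, 10.86, 10.38, 11.04 and 10.85 in Ing2−/− testes, against 11.17, 11.11 and 11.12 in Ing2+/+ testes. Here the groups were only 0.06 apart, and the log2 fold change of −0.31 ± 0.14 did not pass (limma, adjusted p = 0.177). Catsper4 had levels of 9.03, 9.24, 8.36, 9.27 and 9.14 in Ing2−/− testes, against 9.32, 9.47 and 9.46 in Ing2+/+ testes. Its groups were 0.05 apart, and the log2 fold change of −0.41 ± 0.19 did not pass either (limma, adjusted p = 0.208). In mice, loss of any of the 4 pore subunits is known to leave sperm without a working channel.

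The pore subunits were next set against each other. The difference between 2 subunits within each testis was compared between genotypes, which no shift of a whole array can alter, for all 6 pairs. The log2 fold change of Catsper1 minus that of Catsper2 was −0.42, with −0.55 to −0.29 per testis in Ing2−/− and −0.07 to 0.04 in Ing2+/+ mice. Catsper1 minus Catsper4 was −0.33, with −0.56 to −0.22 in Ing2−/− and −0.05 to 0.06 in Ing2+/+ testes. Catsper2 minus Catsper3 was 0.32, with 0.17 to 0.47 in Ing2−/− and −0.07 to 0.12 in Ing2+/+ testes. These 3 differences had no overlap between the genotypes, each with an exact permutation p of 0.0179 and 0.0357 after Benjamini-Hochberg adjustment over the 6 pairs. Catsper3 minus Catsper4 was −0.23, with −0.43 to −0.12 in Ing2−/− and −0.03 to 0.01 in Ing2+/+ testes. It had no overlap either but fell short after adjustment (exact permutation p = 0.0357, adjusted 0.0536). For Catsper1 minus Catsper3 (−0.10, with −0.28 to 0.04 in Ing2−/− and −0.02 to 0.05 in Ing2+/+ testes; exact permutation p = 0.196, adjusted 0.236) and Catsper2 minus Catsper4 (0.09; exact permutation p = 0.429) the test did not pass, which does not show that they changed alike. With each array left out in turn, Catsper1 minus Catsper2 stayed between −0.46 and −0.39 (exact permutation p 0.0286 to 0.0476), Catsper1 minus Catsper4 between −0.36 and −0.27 (0.0286 to 0.0952) and Catsper2 minus Catsper3 between 0.28 and 0.38 (0.0286 to 0.0571). These p-values are unadjusted. After adjustment over the 6 pairs each of the 3 differences had 0.0571 to 0.143, so all 3 lost the adjusted call whichever array was left out.

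The auxiliary subunits lay between the larger and the smaller changes of the pore. Catsperb encodes a transmembrane subunit with a large extracellular part, and its levels were 9.72, 9.37, 8.78, 9.77 and 9.49 in Ing2−/− testes, against 10.05, 9.83 and 9.82 in Ing2+/+ testes. Catsperd encodes a subunit that is needed in mice for the channel to be stable, and its levels were 9.91, 9.75, 9.07, 9.95 and 9.68 in Ing2−/− testes, against 10.12, 10.07 and 10.08 in Ing2+/+ testes. For both genes the groups did not overlap, by 0.04 for Catsperb and 0.11 for Catsperd. Their log2 fold changes of −0.47 ± 0.21 and −0.42 ± 0.18 did not pass in limma (adjusted p = 0.176 and 0.178), and without Ing2−/− replicate 3 they were −0.31 and −0.27.

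Among the other transport genes, Kcnu1 had the largest change of the 10. Kcnu1 encodes the pore of SLO3, the alkaline-activated potassium channel found in sperm. Its levels were 9.36, 9.32, 8.83, 9.64 and 9.26 in Ing2−/− testes, against 10.09, 10.06 and 10.04 in Ing2+/+ testes. The groups were 0.40 apart, the widest gap among the 10 genes, with an SD of 0.03 over the 3 controls. The log2 fold change was −0.78 ± 0.15 (95% interval −1.13 to −0.43), with an adjusted p of 0.0307 by limma and an exact permutation p of 0.0179. Without Ing2−/− replicate 3 it was −0.67 with an adjusted p of 0.00644, but this call too was lost without Ing2−/− replicate 1, 2 or 5 (limma, adjusted p = 0.0549, 0.0535 and 0.0779) and without Ing2+/+ replicate 1, 2 or 3 (0.126, 0.120 and 0.0989).

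Slc9c1 encodes the sperm sodium/proton exchanger, which mouse sperm need for motility. Its levels were 10.26, 9.96, 9.59, 10.49 and 10.16 in Ing2−/− testes, against 10.65, 10.40 and 10.44 in Ing2+/+ testes. Ing2−/− replicate 4 lay among the controls, so the groups overlapped, and the log2 fold change of −0.40 ± 0.18 did not pass (limma, adjusted p = 0.189).

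Atp1a4 encodes the sodium pump subunit that is restricted to male germ cells and restores the sodium gradient in sperm. Its levels were 11.63, 11.66, 11.14, 11.59 and 11.44 in Ing2−/− testes, against 11.80, 11.72 and 11.78 in Ing2+/+ testes. The groups were 0.06 apart, and the log2 fold change of −0.27 ± 0.12, the smallest of the 9 that were below 0, did not pass (limma, adjusted p = 0.176).

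Hvcn1 encodes the voltage-gated proton channel, which is well known in human sperm and in white blood cells. Its levels were 4.995, 5.20, 5.44, 5.19 and 5.04 in Ing2−/− testes, against 5.21, 5.18 and 4.81 in Ing2+/+ testes. In all 8 arrays its probe set was dimmer than the median over probe sets that carry no symbol, which was 5.54 to 5.62 in Ing2−/− and 5.47 to 5.51 in Ing2+/+ arrays, so a level above background was not shown. The log2 fold change was 0.11 ± 0.13 (95% interval −0.18 to 0.40) and did not pass (limma, adjusted p = 0.625).

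Most of the 10 genes varied together over the Ing2−/− testes. Replicate 3 was the lowest of the 5 for 9 genes and the highest for Hvcn1, and replicate 4 was the highest for 8. The median over the 10 genes, as the level minus the Ing2+/+ mean, was −0.21, −0.43, −1.04, −0.14 and −0.37 in Ing2−/− replicates 1 to 5. Markers of round spermatids followed the same order at both ends: their mean over 12 genes (Acrv1, Spaca1, Izumo1 and others, none of them in the group) was −0.24, −0.29, −0.88, −0.14 and −0.31 in the Ing2−/− testes and −0.02 to 0.03 in the Ing2+/+ testes. Markers of Sertoli cells (11 genes) ran the other way, at 0.26 to 1.10 in Ing2−/− and −0.02 to 0.01 in Ing2+/+ testes, and so did those of Leydig cells (6 of 7 genes measured), from 0.33 to 1.31 in Ing2−/− and −0.02 to 0.03 in Ing2+/+ testes. Pachytene spermatocyte markers lay from −0.59 to −0.15 and elongating spermatid markers from −0.48 to −0.07 in Ing2−/− testes, against −0.04 to 0.05 and −0.06 to 0.05 in Ing2+/+ testes. Of 7 measured markers of lymphocytes and granulocytes, cells that use Hvcn1, 4 were dimmer than the probe sets without a symbol. The mean of these 7 was −0.10 to 0.05 in Ing2−/− and −0.06 to 0.03 in Ing2+/+ testes. Macrophage markers (7 genes, 1 of them with a fold change below 0) averaged 0.12 to 0.38 in Ing2−/− and −0.03 to 0.03 in Ing2+/+ testes. The part of the cell mix in the changes of single genes was measured only against these markers, as follows.

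The 12 round spermatid markers had log2 fold changes from −0.54 (Acrv1) to −0.21 (Spaca4), with a median of −0.37, and 0 of them were called. Each of Kcnu1, Catsper1 and Catsper3 had a lower fold change than all 12, whereas 9 of the 12 were lower than Catsper2 and 10 were lower than Atp1a4. Markers of other germ cell stages reached as low: pachytene spermatocyte markers ran from −0.78 (Ccna1) to −0.15 and elongating spermatid markers from −0.68 (Tssk6) to −0.09. Over all genes, 240 had a lower fold change than Kcnu1, 293 than Catsper1 and 466 than Catsper3. The level of each gene was then set against the mean of the 12 round spermatid markers in the same array. On this scale 0 stands for a change equal to the mean of those markers, and the median of all genes shifts to 0.39.

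Against the spermatid markers, Kcnu1 was −0.41 ± 0.14 (SE), with −0.49 to −0.28 in Ing2−/− and −0.06 to 0.04 in Ing2+/+ testes. Catsper1 was −0.36 ± 0.14, with −0.52 to −0.24 in Ing2−/− and −0.02 to 0.01 in Ing2+/+ testes. Catsper3 was −0.26 ± 0.14, with −0.35 to −0.12 in Ing2−/− and −0.06 to 0.04 in Ing2+/+ testes. In these 3 genes all 5 Ing2−/− testes lay below all controls. Each had an exact permutation p of 0.0179, the smallest that this test can give, not adjusted over the 10 genes. The share of all genes without overlap on this scale was not counted. The spread over the Ing2−/− testes was narrower than on the RMA scale. None of the 10 genes passed limma on this scale (adjusted p = 0.0891 for Kcnu1, 0.0957 for Catsper1 and 0.141 for Catsper3), where 0.0702% of all genes were called lower. At an unadjusted p under 0.05, 2 of the 10 were lower and 0 higher, against 1.53% of all genes lower and 41.9% higher. Without Ing2−/− replicate 3, limma called Kcnu1, Catsper1 and Catsper3 lower on this scale, in a fit that called 20118 of the 35557 probe sets, with 2.67% of all genes lower and 56% higher.

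The 95% interval of the difference from the spermatid markers held 0 for Catsper3 (−0.57 to 0.05) and for the other 7 genes. Catsperb was −0.10 ± 0.15, Catsperd −0.04 ± 0.14, Catsper4 −0.03 ± 0.15 and Slc9c1 −0.03 ± 0.15 against the markers. Catsper2 and Atp1a4 changed sign, to 0.06 ± 0.14 and 0.10 ± 0.15, and Hvcn1, at background, was 0.48 ± 0.24.

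**Figure D2:**
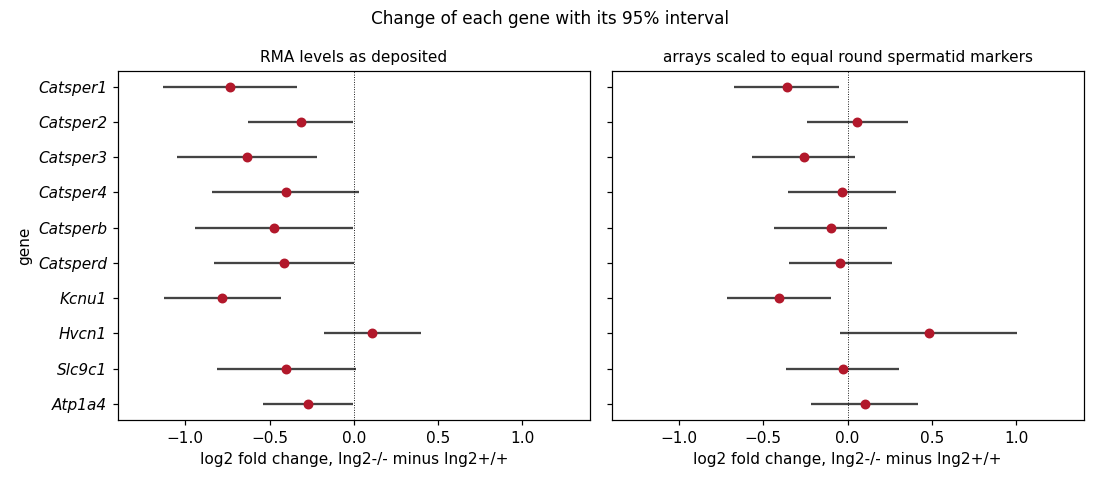
Log2 fold change (Ing2−/− minus Ing2+/+, x axis) of each gene with its 95% interval from limma, on the RMA scale (left panel) and with arrays scaled to equal round spermatid markers (right panel). Kcnu1 and Catsper1 keep intervals below 0 in both panels (−0.41 and −0.36 on the right), while Catsper2 and Atp1a4 lie at 0.06 and 0.10 on the right.

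The plot by testis shows the same contrast array by array. In every Ing2−/− testis Kcnu1, Catsper1 and Catsper3 lay below the round spermatid mean, for example at −0.42, −0.38 and −0.27 against −0.14 in replicate 4, and at −1.23, −1.27 and −1.23 against −0.88 in replicate 3. Catsper2 followed the marker mean within 0.12 in each Ing2−/− testis.

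**Figure D3:**
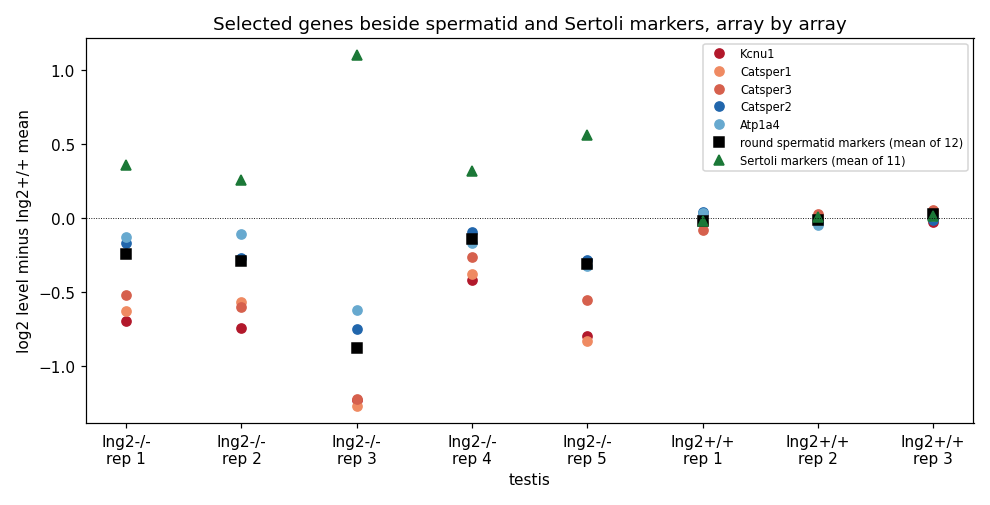
Log2 level minus Ing2+/+ mean (y axis) in each testis (x axis, Ing2−/− left, Ing2+/+ right) of Kcnu1, Catsper1 and Catsper3 (warm colours), Catsper2 and Atp1a4 (blue), the mean of 12 round spermatid markers (black squares) and the mean of 11 Sertoli markers (green triangles). The warm points lie below the squares in all 5 Ing2−/− testes, and replicate 3 has both the lowest squares (−0.88) and the highest triangles (1.10).

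Other genes of the channel and its pathway were taken from 5 lists of known partners. Of 11 further CatSper components, 7 were measured by a probe set with 1 symbol and the other 4 were not analysed here. All 7 were below 0, with a median log2 fold change of −0.47, and 1 was called lower. Among all 19938 genes, 9120 were below 0 and 3.01% were called lower. Tmem262, which encodes a small transmembrane component, had levels of 6.71, 6.51, 6.32, 6.75 and 6.50 in Ing2−/− testes, against 6.93, 7.00 and 7.16 in Ing2+/+ testes. These groups did not overlap, and the log2 fold change of −0.47 ± 0.11 passed in limma with an adjusted p of 0.0469, and 0.0233 without Ing2−/− replicate 3. That call was lost without Ing2−/− replicate 1, 2 or 5 (limma, adjusted p = 0.0588, 0.0729 and 0.106) and without Ing2+/+ replicate 1, 2 or 3 (0.126, 0.149 and 0.158). Against the spermatid markers Tmem262 was −0.10 ± 0.15. Slco6c1, a transporter-like protein found in the channel complex, was also among the 5 genes outside the group whose profile over the 8 arrays was nearest to the median profile of the 10 genes (root mean square difference 0.045). The other 4 were Agbl3 and Ttll8, a tubulin deglutamylase and a tubulin glycylase, with 0.037 and 0.044, Atl1 with 0.038 and Cep95 with 0.042.

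Of 14 other genes of sperm ion and bicarbonate transport, 13 were measured, with a median log2 fold change of −0.04, and 0 were called by limma. At an unadjusted p under 0.05, 4 were lower and 1 higher, against 13.5% and 16.5% of all genes. Pkdrej, a sperm membrane protein of the polycystin family that acts in the timing of the acrosome reaction, had the lowest fold change. Its levels were 8.26, 8.15, 7.25, 8.08 and 7.96 in Ing2−/− testes, against 8.69, 8.72 and 8.79 in Ing2+/+ testes. Its groups did not overlap, and the log2 fold change of −0.79 ± 0.20 had an adjusted p of 0.0595 by limma, and 0.00513 without Ing2−/− replicate 3. Slc4a2, an anion exchanger of many tissues, was at 0.44 ± 0.14 (limma, adjusted p = 0.0889, and 0.0268 without Ing2−/− replicate 3). Lrrc52, the auxiliary subunit of SLO3 and so the partner of Kcnu1, was singled out after its values were seen. It had levels of 8.77, 8.68, 7.79, 8.65 and 8.37 in Ing2−/− testes, against 9.02, 9.15 and 9.07 in Ing2+/+ testes. The groups did not overlap, and its log2 fold change of −0.63 ± 0.21 did not pass (limma, adjusted p = 0.0977).

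Of 13 genes of cAMP and calcium signalling in sperm, 12 were measured, 1 was called lower and 10 were below 0, with a median log2 fold change of −0.34. Over all 19938 genes, 3.01% were called lower and 9120 were below 0. Ppp3r2 encodes the regulatory subunit of the sperm calcineurin, a phosphatase that responds to calcium and is needed in mice for a flexible midpiece. Its levels were 9.26, 9.17, 8.24, 9.35 and 9.01 in Ing2−/− testes, against 10.02, 9.98 and 9.93 in Ing2+/+ testes, with a gap of 0.58 between the groups. The log2 fold change was −0.97 ± 0.23 (limma, adjusted p = 0.0472, and 0.00320 without Ing2−/− replicate 3). It was not called without Ing2−/− replicate 1, 2 or 5 (limma, adjusted p = 0.0636, 0.0656 and 0.106) or without Ing2+/+ replicate 1, 2 or 3 (0.162, 0.158 and 0.138). Against the spermatid markers Ppp3r2 was −0.60 ± 0.15 and did not pass (limma, adjusted p = 0.0891). Its catalytic partner Ppp3cc had a log2 fold change of −0.22 ± 0.10 (limma, adjusted p = 0.179).

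Relatives of the 10 genes, listed as other sodium pump genes and as related channels and exchangers, held no called gene. The 3 beta subunits of the sodium pump that were measured (of 6 other pump genes listed) included Atp1b1 at 0.48 ± 0.14 and Atp1b2 at 0.80 ± 0.26, neither of which passed in limma (adjusted p = 0.0776 and 0.0949), and Atp1b3 at −0.09 ± 0.06. Neither Atp1b1 nor Atp1b2 had an Ing2−/− testis as low as the highest control, with Atp1b2 at 8.74 to 9.97 in Ing2−/− and 8.22 to 8.34 in Ing2+/+ testes. Without Ing2−/− replicate 3, where 8.72% of all genes were called higher, both passed by limma (adjusted p = 0.0145 for Atp1b1 and 0.00525 for Atp1b2). With any other array left out neither passed (0.0735 to 0.217 for Atp1b1 and 0.0908 to 0.235 for Atp1b2), nor did Pkdrej, Slc4a2 or Slc9a2. Of 12 related channels and exchangers 10 were measured, with a median log2 fold change of 0.09, and 0 were called by limma. At an unadjusted p under 0.05, 3 were higher and 1 lower, against 16.5% and 13.5% of all genes. The 1 lower gene was Tpte, in this list though it encodes a transmembrane phosphatase and no channel or exchanger, at −0.54 ± 0.19 (limma, adjusted p = 0.108). Slc9a2, a sodium/proton exchanger best known from epithelia, was at 0.49 ± 0.12 (limma, adjusted p = 0.0520, and 0.0122 without Ing2−/− replicate 3), against −0.40 ± 0.18 for Slc9c1. Kcnt1, a sodium-activated potassium channel related to SLO3, was at 0.45 ± 0.14 (limma, adjusted p = 0.0851), against −0.78 ± 0.15 for Kcnu1. Slc9a2 and Kcnt1 were named for the smallest p of their list, in which 4 of the 10 genes were below 0. Slc9a3, Slc9a5 and Slc9a8 were at −0.11, −0.18 and −0.20, Slc9a7 and Slc9a9 at 0.31 and 0.33, and Kcnma1 at 0.09. With arrays scaled to equal Sertoli markers Slc4a2, Atp1b1, Slc9a2 and Kcnt1 turned to −0.084, −0.044, −0.029 and −0.073 and Atp1b2 stayed above 0 at 0.27, while the median of all genes moved to −0.50.

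**Figure D4:**
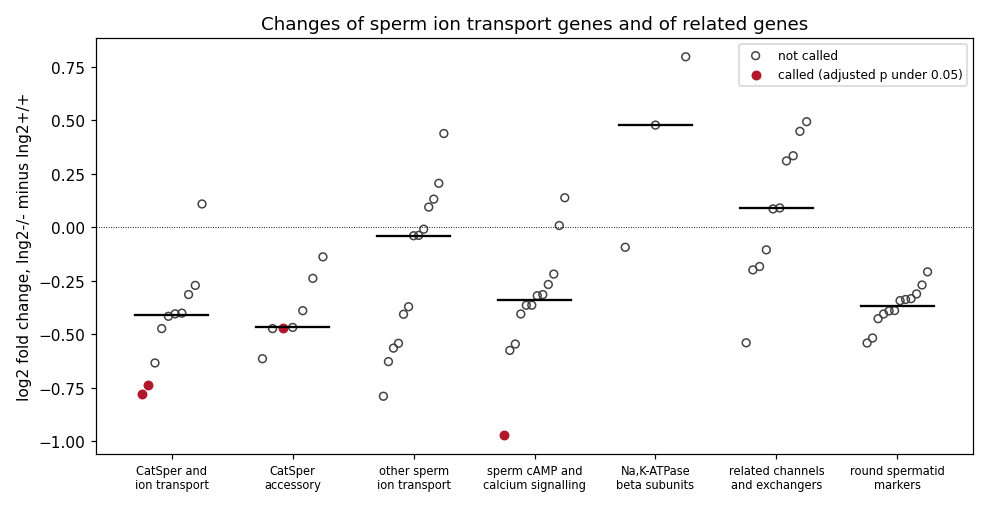
Log2 fold change (Ing2−/− minus Ing2+/+, y axis) of every measured gene of the group, of the 5 lists of related genes and of the round spermatid markers (x axis); filled red points are called at an adjusted p under 0.05 by limma, and black lines give each list's median. The medians are −0.41 for the 10 genes, −0.47 for the CatSper accessory genes and 0.48 for the sodium pump beta subunits, and 4 points are filled: Catsper1, Kcnu1, Tmem262 and Ppp3r2.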

How the data were processed

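RNA of the whole testis was measured on 1 array per mouse, from 5 Ing2−/− and 3 Ing2+/+ males. The values are log2 levels as deposited by the authors, who ran RMA (background correction, quantile normalization, summary over the probes of a probe set) in Affymetrix Expression Console; its version and the genome build are not given in the sources used here. They were used without further steps, with array medians of 6.46 to 6.53 in Ing2−/− and 6.41 to 6.45 in Ing2+/+ testes, and 0 columns were left out. A change in total RNA per testis leaves no trace in them.

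Gene names came from the platform annotation, updated by gene identifier; 21789 had 1 symbol, 1621 several and 12147 none. Probe sets with several symbols name no gene, and for the 999 genes with over 1 probe set the brightest was taken. The genotypes were tested by lmFit and eBayes of limma 3.58.1 (R 4.3.3) without covariates, with a prior of 2.85 degrees of freedom and p-values adjusted by Benjamini-Hochberg over 35557 probe sets, and single values by two-sided exact permutation of the arrays. No batch of the arrays is given. The p-values set the difference between genotypes against the spread between arrays, in which mouse and array are not separated. The fit was tested on simulated data. The scale against round spermatids subtracts from each array its mean over 12 markers. The number of arrays limits the precision.

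The genes of the group and all lists were chosen with earlier results of these data known. Genes named are the group, in each list of related genes those called or the 2 with the smallest p, the 5 with the nearest profiles and Ing2; others are named as examples. Alternatives were the replicate block, each array left out, dim or ambiguous probe sets left out, cyclic loess, scaling to Sertoli or round spermatid markers, other variance models, array weights, all probe sets of a gene and the unadjusted threshold of the methods. Python 3.11.15 and matplotlib 3.10.9 drew the figures.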

Additional observations from a re-analysis of the deposited data

Results flagged for a closer look

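Catsper4 in Ing2−/− replicate 3, at a log2 level of 8.36, stood far from the other 4 Ing2−/− testes, which lay from 9.03 to 9.27. Its gap to the nearest was 0.731 of the whole range, above the critical value of 0.71 for 5 samples (Dixon). It was the 1 flag among 11 sets of 5 Ing2−/− arrays looked at, and such a rule flags some groups by chance. The same array was the lowest for 9 of the 10 genes. Without it the log2 fold change of Catsper4 was −0.24, against −0.41 with it, and neither passed in limma.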

How the results depend on the processing

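The 9 fold changes below 0 kept their sign under all alternatives to the fit of the RMA levels, except Catsper2 and Atp1a4, which turned to 0.058 and 0.10 when arrays were scaled to equal round spermatid markers; Hvcn1 lay from −0.022 (without Ing2+/+ replicate 3) to 0.18 with each array left out and turned to −0.41 with equal Sertoli markers. The median of the 10 genes moved to −0.93 with equal Sertoli and −0.037 with equal round spermatid markers, and was −0.27 without Ing2−/− replicate 3 and −0.49 to −0.40 without each other array. Of the related genes, Slc4a2, Atp1b1, Slc9a2 and Kcnt1 turned to −0.084, −0.044, −0.029 and −0.073 with equal Sertoli markers while Atp1b2 stayed at 0.27, and Tmem262 and Ppp3r2 were each called in 8 of 18 alternatives.

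The count of 2 genes called lower rests on values near the threshold. It was 0 with the replicate block, with equal round spermatid markers and without moderation of the variance, 1 (Kcnu1) with an intensity trend, with the random variance model and at an unadjusted p under 0.001, and 0 to 3 with each array left out. It was 0 without Ing2−/− replicate 1, 2 or 5 and without each Ing2+/+ array, and 3 (Catsper1, Catsper3, Kcnu1) without Ing2−/− replicate 3. Array weights also called these 3. Probe sets called were 1713 in all, 49 to 5006 with each array left out, 100 with equal round spermatid markers, 6565 with array weights, 184 without moderation and 954 at an unadjusted p under 0.001. The replicate block called 0 probe sets in limma (smallest adjusted p 0.0612, with 0.100 for Kcnu1 and 0.123 for Catsper1). Whether same-numbered mice form pairs is not given. The deviations of same-numbered arrays correlated at −0.057, 0.184 and 0.0058, and those of differently numbered arrays at −0.113 to 0.144. So few arrays cannot show whether the numbers pair mice.

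Alternatives on the round spermatid scale, those for related genes and the leaving out of arrays for pore pairs were chosen after seeing the data. Of the 10 genes 0 were called on that scale, 0 to 3 with each array left out (3 without Ing2−/− replicate 3, where 20118 probe sets were called), 2 with pachytene spermatocyte markers in place of round spermatid markers (6352 probe sets, 1.55% of all genes lower), and 0 with elongating spermatid markers or the replicate block. Hvcn1 was not in the fit of brighter probe sets. The causes were not tested. Hvcn1 lies at background, where a change cannot be read.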
